A study of Mus musculus with 12 samples.

Results

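The genes described here are the cap-binding proteins Eif4e, Eif4e2 and Eif4e3 and the proteins that act with them to lower translation, namely Gigyf1, Gigyf2, Zfp598, Eif4enif1, Eif4ebp1 and Eif4ebp2. They were chosen by name, with earlier results of these data known. They make up 9 of the 20409 genes in the insertion tables of 3 ORFtag screens in mouse embryonic stem (mES) cells. In ORFtag, a retroviral cassette integrates at random and splices a protein tag onto the next exon downstream, so that the cell expresses a tagged version of its own gene. Sites of integration were mapped by inverse PCR in sorted and in unsorted cells. An excess of sites at a gene in the sorted cells is read as a sign that the gene's tagged product moved the reporter.

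The screen for regulators acting after transcription (PTGR, post-transcriptional gene regulator) used the λN peptide as its tag, a binder of boxB hairpins in the mRNA of a GFP reporter (Puro-IRES-GFP-10xBoxB) that had integrated at random in otherwise wild-type mES cells carrying CreERT2. Cells were sorted repeatedly for low GFP, treated with 4-hydroxytamoxifen so that Cre removed the boxB array, and sorted a last time for regained GFP. In the other screens the tag was the DNA-binding domain TetR, and the reporters lay at one locus on chromosome 15. The activator reporter (7xTetO-pMYLPF-Puro-IRES-GFP) starts silent and GFP-positive cells were collected, whereas the repressor reporter (pEF1-BFP-7xTetO-pPGK-Puro-IRES-GFP) starts active and GFP-negative cells were collected. All cells derived from an originally haploid mES line, were diploid when used, were selected with G418 for the cassette, and each reporter line was 1 clone. Each screen had 2 sorted and 2 unsorted libraries, 12 in all, and the 6 unsorted libraries together served as the background. Only genomic positions were measured, so the cell type could not be checked against marker genes.

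Translation of most mRNAs starts when eIF4E, bound to the 5′ cap, recruits the scaffold eIF4G. The 4E-BPs (Eif4ebp1, Eif4ebp2) occupy the eIF4G site on eIF4E and are released when mTOR phosphorylates them. Eif4e2, also called 4EHP, holds the cap without recruiting eIF4G and, bound to the GYF proteins Gigyf1 or Gigyf2, shuts down the mRNA to which it is brought. Zfp598, a ubiquitin ligase that detects collided ribosomes, is one protein that works with this complex. Eif4enif1, also called 4E-T, binds eIF4E and eIF4E2, sits in P-bodies with the helicase Ddx6, and links the cap to the decay machinery.

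A cassette can only make a fusion by splicing to an acceptor at the start of a downstream exon. Acceptors to which many insertions at Eif4e2 and Eif4enif1 were assigned are shown because the exon chosen sets how much of the protein the fusion holds. Each run is given 5′ to 3′ on the plus strand of the RefSeq GRCm38.p6 genome (the assembly also called mm10), with the last 20 bases of the intron in lower case and the opening 10 bases of the exon in capitals. At every one of these starts the intron ended in ag, and 14 to 17 of the 18 bases before it were pyrimidines.
Eif4e2 exon 2, chr1:87219561-87219590: tattttgctttcctatgtagCTTAAAAGAT
Eif4e2 exon 5, chr1:87225830-87225859: tgctttctgtctttctatagGATGATGCAA
Eif4e2 exon 7 of 1 transcript, chr1:87227781-87227810: accttttgcacttccactagAATGCCAGGC
Eif4e2 exon 7 of another transcript, chr1:87232383-87232412: ttttgtctctggtttaccagGGCCTGGGAG
Eif4e2 exon 7 of another transcript, chr1:87237826-87237855: tctcccattttctctttcagGGACAATTCA
Eif4enif1 exon 2, chr11:3203610-3203639: tgcctaattttattttccagGTGCAAAAAT
Eif4enif1 exon 3, chr11:3213240-3213269: catgtgatttttctttttagGAGGAGCTCT
Eif4e2 exon 2 starts 20 bases into the reading frame, so a fusion there would keep 757 of 777 coding bases. Fusions from exon 5 would keep 51.7% of the coding sequence, and those from the exon 7 starts shown 9.52%, 6.07% and 0%. Eif4enif1 exon 2 begins before the start codon and keeps all 2949 coding bases, while exon 3 lacks the opening 93. The study mixed cassettes of every reading frame, and only a cassette of the matching frame would make an in-frame fusion. The frame carried by each insertion was not known here, so insertions of all frames were counted.

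Libraries held between 14705 and 60980 insertions after sorting and between 54088 and 233799 before it, counting each position once and only within 200 kb of the assigned exon. Rates are therefore given as insertions per 10000 insertions of the library, and the standard errors (SE) and 95% intervals of odds ratios cover counting error only. Cells of the PTGR screen grew between sorts, so insertions are not independent events. The members were hit at very different rates before selection, with 5 (Eif4e3) to 478 (Eif4ebp1) insertions in the background of 1022126, against a median of 15 over all 20409 genes.

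Of the 9 members, Eif4e2 and Eif4enif1 were higher in the PTGR sorted cells, and neither was called in the repressor or the activator screen. Genes with 3 or more sorted insertions entered a Fisher's exact test, one-sided for more insertions in the sorted cells, with p-values adjusted by Benjamini-Hochberg over every such gene. A call needed a log2 odds ratio of 1 or more together with an adjusted p under 0.001. In the PTGR screen 7 members were tested and 2 called, where 0.666% of the 9303 genes tested were called. The study already names these 2 among its hits, so the members are not an unbiased set beside that share. The 7 log2 odds ratios ran from -0.85 to 2.31 with a median of 0.24, beside a median of 0.14 over all genes tested. Their directions were mixed, with 5 above 0 and 2 below.

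**Figure D1:**
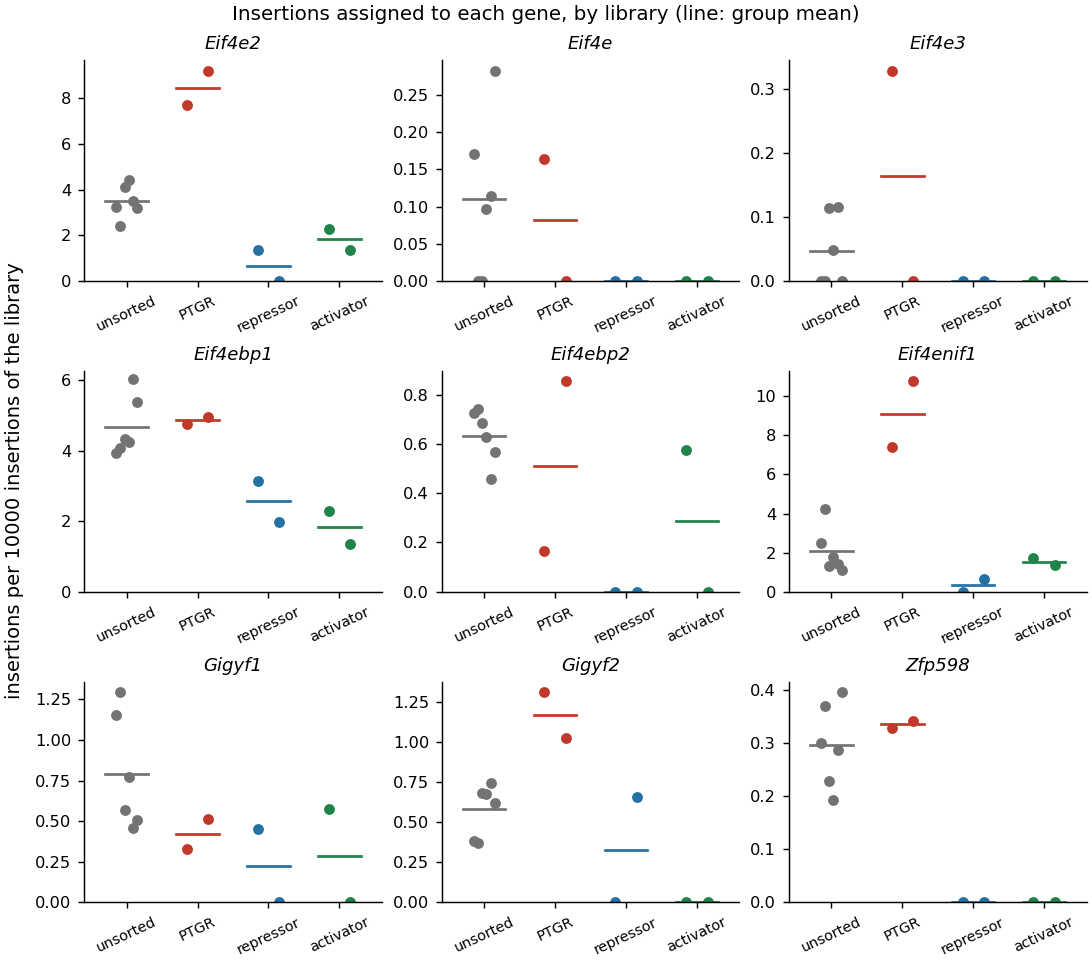
Insertions assigned to each of the 9 genes, per 10000 insertions of the library (vertical axes start at 0 and differ between genes), in the 6 unsorted libraries and the 2 sorted libraries of each screen; points are libraries and lines are group means. Both PTGR sorted libraries lie above all 6 unsorted libraries for Eif4e2, Eif4enif1 and Gigyf2, as for 7.83% of the genes tested.

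Eif4e2 (ENSMUSG00000026254, chr1:87213914-87240488, plus strand) is the cap-binding protein that blocks rather than starts translation. It had 7.71 and 9.22 insertions per 10000 in PTGR sorted replicates 1 and 2, against 2.40, 3.38 and 4.43 as the lowest, median and highest of the 6 unsorted libraries. Both sorted libraries were above every unsorted library, as were those of 7.83% of the genes tested. The means were 8.46 ± 1.07 (SD, n = 2) and 3.49 ± 0.717 (SD, n = 6). In counts, 101 sorted insertions stood against 371 in the background and 43.4 expected from library size, a log2 odds ratio of 1.22 ± 0.16 (SE) with an adjusted p of 7.85e-10 in the Fisher's exact test. Each sorted replicate alone gave a call, at log2 odds ratios of 1.09 and 1.35.

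Eif4enif1 (ENSMUSG00000020454, chr11:3202392-3244588, plus strand) bridges cap-bound eIF4E and the decay factors. Its rate was 7.38 and 10.8 insertions per 10000 in the PTGR sorted replicates, against 1.13, 1.61 and 4.25 as the lowest, median and highest unsorted library. Both sorted libraries were above every unsorted library, as for 7.83% of the genes tested. The highest unsorted library was PTGR unsorted replicate 2, the shallowest of the 6. The sorted mean was 9.07 ± 2.39 (SD, n = 2) and the unsorted mean 2.07 ± 1.17 (SD, n = 6). The 108 sorted insertions compared with 186 in the background and 21.8 expected, a log2 odds ratio of 2.31 ± 0.17 (SE) and an adjusted p of 3.42e-30 in the Fisher's exact test. Replicates 1 and 2 alone gave 2.02 and 2.56, each a call.

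The Fisher's exact test does not see the spread between replicate libraries, so the PTGR sorted libraries were also compared with the unsorted libraries of that screen alone in edgeR's quasi-likelihood test. Eif4e2 was higher by 1.61 ± 0.33 (log2 fold change ± SE, edgeR, adjusted p = 8.17e-05) and Eif4enif1 by 1.67 ± 0.34 (edgeR, adjusted p = 5.25e-05), where 2.24% of the 1696 genes tested were higher at an adjusted p below 0.05 and a log2 fold change of 1 or more. For Eif4enif1 this is less than the log2 odds ratio against the full background, as its rate in the PTGR unsorted libraries was 2.48 and 4.25. Without edgeR's filter on low counts, which leaves 17091 genes in the adjustment and 0.199% of them called, Eif4e2 was no longer called (log2 fold change 1.40, edgeR adjusted p = 0.0540) and Eif4enif1 was (1.45, edgeR adjusted p = 0.0362). DESeq2 called both, and 0.985% of all genes tested, with log2 fold changes of 1.57 (adjusted p = 0.0240) and 1.56 (adjusted p = 0.0283).

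**Figure D2:**
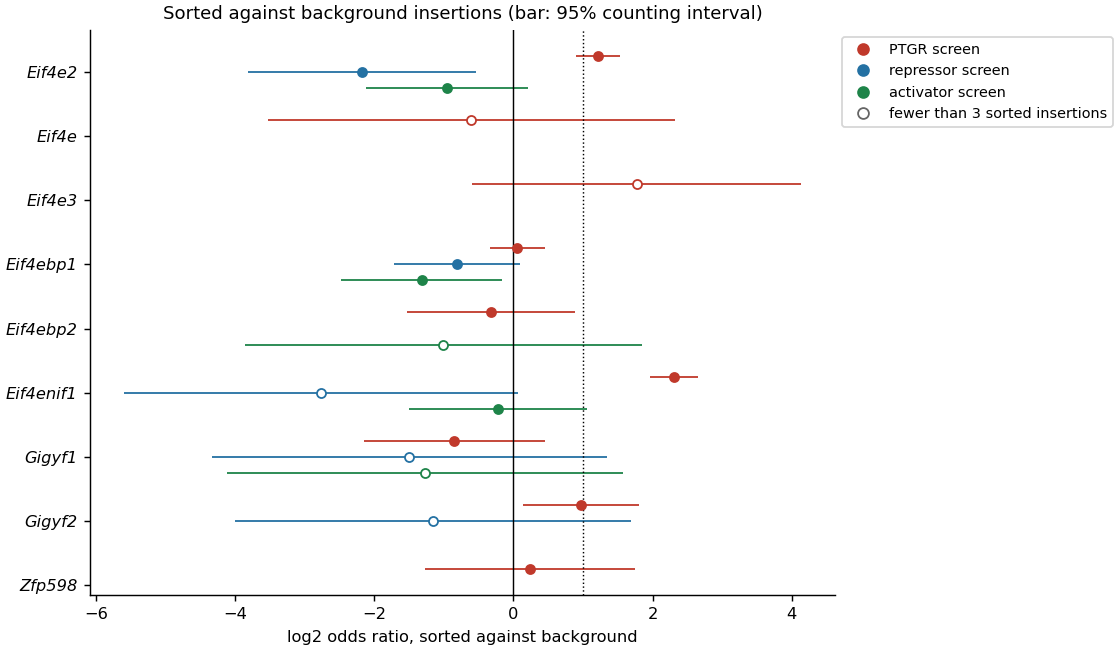
Log2 odds ratio of sorted against background insertions for each member in each screen, with 95% counting intervals; the dotted line marks the threshold of 1 and open circles mark genes with fewer than 3 sorted insertions, which were not tested. The PTGR values of Eif4e2 (1.22) and Eif4enif1 (2.31) lie above the threshold, and that of Gigyf2 (0.97) just below it.

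Gigyf2, the GYF scaffold through which Eif4e2 is joined to its targets, was the only other member with both PTGR sorted libraries above all 6 unsorted ones. The same held for 7.83% of the 9303 genes tested. The rates of Gigyf2, 1.31 and 1.02 per 10000, compared with 0.370, 0.648 and 0.746 as the lowest, median and highest unsorted values. With 14 sorted insertions against 61 in the background, the log2 odds ratio was 0.97 ± 0.43 and the adjusted p 0.346 by the Fisher's exact test, so it was not called. The odds ratio had an interval of 1.10 to 3.51, and 24 sorted insertions would have been needed for a call. Of the 14 sites, 13 were assigned to exon 2, which keeps the whole coding sequence, and the background had 56 of 61 there. Gigyf1, its paralogue, had rates of 0.328 and 0.512 per 10000 against 0.459 to 1.29 unsorted, or 5 insertions against 9.01 expected, and a log2 odds ratio of -0.85 ± 0.67. For Gigyf1 the interval of the odds ratio was 0.225 to 1.37, and 28 insertions would have been needed. The difference between the paralogues was not tested.

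Zfp598, the sensor of collided ribosomes, had 2 insertions in each PTGR sorted library and 4 in all, where 3.39 were expected and 17 would have been needed for a call. Its rates of 0.328 and 0.342 per 10000 lay inside the unsorted range of 0.193 to 0.396, with an odds ratio interval of 0.415 to 3.35. For Zfp598, as for Gigyf1 and Gigyf2, a smaller excess was not detectable at this depth.

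Eif4ebp1, the best known eIF4E-binding inhibitor, was the member most often hit before selection and lay close to the background in the PTGR screen. It had 4.76 and 4.95 insertions per 10000 in the sorted libraries, within the unsorted range of 3.93 to 6.02 around a median of 4.29. The 58 sorted insertions against 55.9 expected gave a log2 odds ratio of 0.05 ± 0.20, and the interval of the odds ratio, 0.790 to 1.36, lay wholly below the odds ratio of 2 that a call needs. All of the insertions in both groups were assigned to exon 2, from which a fusion would keep 59.5% of the coding sequence. Few of them lay in the gene itself, with 5.44% of background and 1.72% of PTGR sorted insertions inside it, and 295 of the 478 background insertions lay in the neighbouring gene Adrb3, an adrenergic receptor. Whether fusions formed from such distances was not tested.

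Eif4ebp2, the related inhibitor, had 0.164 and 0.854 per 10000 in the PTGR sorted libraries, the lower value below and the higher above the whole unsorted range of 0.459 to 0.740. Its 6 insertions against 7.48 expected gave a log2 odds ratio of -0.32 ± 0.62, with an interval of the odds ratio of 0.347 to 1.85. Eif4e itself, the initiation factor, was rarely hit and not tested, with 1 PTGR sorted and 13 background insertions and an interval of the odds ratio of 0.0860 to 5.03. Eif4e3, the least studied of the cap-binding family, had 2 sorted insertions, both in replicate 1, and 5 in the background, with an interval of 0.664 to 17.6. For Eif4e and Eif4e3, 12 and 9 sorted insertions would have been needed for a call.

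In the screens at DNA, no member was called. The shares of tested genes that were called there were 8.18% (repressor screen, 2346 genes) and 4.64% (activator screen, 2842 genes). Only 2 members reached 3 sorted insertions in the repressor screen and 3 in the activator screen, and none of them was higher at an unadjusted p below 0.05 in the Fisher's exact test. Against the unsorted libraries of their own screen, no member was called higher by edgeR, which called 7.20% and 4.00% of genes in the repressor and activator screens, or by DESeq2, which called 5.81% and 2.83%, and none was higher at an unadjusted p below 0.05 in either tool. Eif4e2 had 3 and 0 insertions in the 2 repressor sorted libraries, giving a log2 odds ratio of -2.18 ± 0.84, and 4 and 2 in the activator sorted libraries, giving -0.96 ± 0.59. Eif4ebp1 had log2 odds ratios of -0.81 ± 0.46 with 7 and 3 insertions in the repressor screen and -1.32 ± 0.59 with 4 and 2 in the activator screen. Both genes lay below all 6 unsorted libraries in both screens, but so did many others. Of the 7 members with an insertion in all 6 unsorted libraries, 6 lay below them in the repressor screen and 4 in the activator screen, beside 58.0% and 43.4% of the 9116 such genes. Eif4enif1 had 0 and 1 insertions in the repressor screen, too few to test, and 3 and 2 in the activator screen, at -0.22 ± 0.65. The Fisher's exact test was one-sided for a higher count and gives no p for lower values. In edgeR, which tests both directions, Eif4e2 was at -1.26 ± 0.79 in the repressor screen (adjusted p = 0.409) and -0.84 ± 0.58 in the activator screen (adjusted p = 0.752). With library totals in place of TMM normalization, which lowers the median log2 fold change of all genes there from -0.38 to -1.17, Eif4e2 was lower in the repressor screen at -2.05 ± 0.70 (edgeR, adjusted p = 0.0182), and Eif4ebp1 was at -1.09 ± 0.45 (edgeR, adjusted p = 0.0524). A call would have taken 31 and 29 insertions at Eif4e2, and 20 and 19 at Eif4enif1, in the repressor and activator screens. The medians over all genes tested were also below 0, at -0.39 and -0.14.

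Whether the enrichment of a gene differed between screens was tested directly with the interaction term of edgeR over all 12 libraries, for the 3 members with enough insertions. The log2 fold change of Eif4e2 (sorted over unsorted) was higher in the PTGR than in the repressor screen by 2.82 ± 0.72 (edgeR, adjusted p = 0.00442) and higher than in the activator screen by 2.36 ± 0.59 (edgeR, adjusted p = 0.00530). Of the 2569 genes tested, 6.54% and 3.89% differed in either direction in these comparisons. Leaving out 1 sorted replicate of every screen leaves each sorted group with 1 library, which is then assumed to vary like the unsorted groups. Tested on the same 2569 genes without sorted replicate 2, of which 6.19% and 2.84% differed, neither difference passed, at 1.86 against the repressor screen (edgeR adjusted p = 0.214) and 2.14 against the activator screen (edgeR adjusted p = 0.0759). Without sorted replicate 1, where 4.55% and 3.74% of genes differed, the repressor screen had 0 sorted insertions at Eif4e2, so that its difference has no size (edgeR adjusted p = 0.00540), and the difference from the activator screen was 2.60 (edgeR adjusted p = 0.0715). With library totals in place of TMM normalization, the differences of Eif4e2 were 3.54 and 2.67 (edgeR adjusted p = 5.20e-05 and 0.000667). Eif4enif1 did not pass, at 3.11 ± 1.11 against the repressor screen (edgeR, adjusted p = 0.0828; with library totals 3.82, adjusted p = 0.00688) and 1.29 ± 0.71 against the activator screen (edgeR, adjusted p = 0.593). Eif4ebp1 gave 0.65 ± 0.54 and 1.17 ± 0.62 (edgeR, adjusted p = 0.616 and 0.567). The repressor and activator screens did not differ detectably at Eif4e2, at -0.46 ± 1.03 (edgeR, adjusted p = 0.892), where 8.25% of genes differed in either direction.

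Within Eif4e2, the exons to which insertions were assigned differed in share between the sorted cells and the background. In the unsorted libraries most insertions fell far inside the gene and were assigned to an exon 7, with 263 of 371 (70.9%), whereas in the PTGR sorted cells 33 of 101 (32.7%) were. The share was 34.0% and 31.5% in the sorted replicates and 61.5% to 79.2% in the unsorted libraries, with no overlap. As a rate, exon 7 took a mean of 2.76 insertions per 10000 in the PTGR sorted libraries and 2.47 in the unsorted libraries. Its share thus fell without a fall in its rate. The exon share differed at an adjusted p of 7.02e-09 (two-sided Fisher's exact test on exon 7 against other exons, Benjamini-Hochberg adjustment), where 0.757% of the 2907 genes tested differed at an adjusted p below 0.05. Against the unsorted PTGR libraries alone the adjusted p was 0.0379 in the same Fisher's exact test.

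The insertions that made up the difference lay before exon 2, in the stretch from just upstream of the gene to the acceptor whose run ends in CTTAAAAGAT. This exon was singled out after its values were seen. Exon 2 of Eif4e2 took 20 and 35 insertions in the PTGR sorted replicates, 55 in all, against 33 in the whole background. This was 42.6% (95% Wilson interval 29.5% to 56.7%) and 64.8% (51.5% to 76.2%) of the gene's insertions in the sorted libraries, against 2.78% to 23.1% in the unsorted ones. As a rate, exon 2 took 3.28 and 5.98 insertions per 10000 in the sorted libraries and 0.114 to 0.555 in the unsorted libraries, with means of 4.63 ± 1.91 (SD, n = 2) and 0.340 ± 0.193 (SD, n = 6). The log2 odds ratio of the exon was 3.83 ± 0.32, with an adjusted p of 2.07e-29 in the Fisher's exact test over 9598 pairs of gene and exon, of which 0.854% were called.

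No other exon start of Eif4e2 passed that test, and 2 of them had 1 sorted insertion each and were not tested. With exon 2 left out, the gene had 46 sorted insertions, 27 and 19 by replicate, against 338 in the background, and the log2 odds ratio was 0.22 ± 0.23 with an interval of the odds ratio of 0.855 to 1.58. Exon 3, which would keep 82.6% of the coding sequence, had 3 sorted insertions against 6. Its log2 odds ratio of 2.10 ± 1.02 (adjusted p = 0.441, Fisher's exact test) rests on too few insertions to tell an excess from none. Exon 5 had 5 against 30 (log2 odds ratio 0.51 ± 0.70), all of them in replicate 1. Among the exon 7 starts, the one whose run ends in GGCCTGGGAG had 8 and 15 sorted insertions against 127 (0.63 ± 0.33, adjusted p = 0.381 by the Fisher's exact test), and the one ending in GGACAATTCA had 6 against 85 (-0.73 ± 0.61). The 1 exon start called in Eif4e2 was thus the one that keeps 97.4% of the coding sequence.

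**Figure D3:**
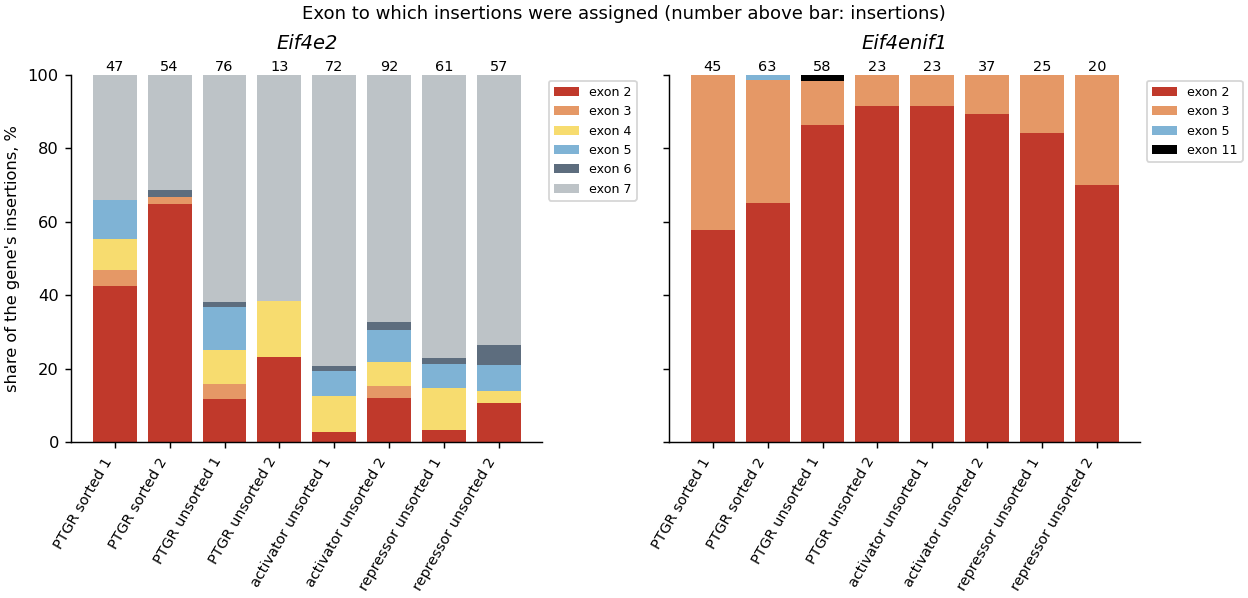
Share of the insertions at Eif4e2 and Eif4enif1 that were assigned to each exon, in percent, in each PTGR sorted library and each unsorted library; numbers above the bars are insertions. In the PTGR sorted libraries exon 2 of Eif4e2 holds 42.6% and 64.8%, against at most 23.1% in an unsorted library.

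Eif4enif1 also differed in the exons to which insertions were assigned, with a smaller shift. Exon 2, the one most used in the background, had 160 of 186 insertions (86.0%) there and 67 of 108 (62.0%) in the PTGR sorted cells (adjusted p = 0.00171, two-sided Fisher's exact test). The shares were 57.8% and 65.1% in the sorted libraries and 70.0% to 91.3% in the unsorted libraries. This call did not hold within 50 kb of the exon, where the sorted share minus the background share was -23.1 percentage points (Fisher's exact test, adjusted p = 0.0984), or without sorted replicate 1, where it was -20.9 points (Fisher's exact test, adjusted p = 0.0526). With all insertions it was -24.0 points.

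Nearly all the rest went to exon 3 of Eif4enif1, which keeps 96.8% of the coding sequence and, like exon 2 of Eif4e2, was singled out after its values were seen. It took 19 and 21 insertions in the sorted replicates, beside 25 in the background, which is 3.12 and 3.59 per 10000 against 0.114 to 0.370 in the unsorted libraries. Its log2 odds ratio was 3.77 ± 0.37 (adjusted p = 8.57e-21, Fisher's exact test). Exon 2 was called as well, with 26 and 41 against 160 (1.84 ± 0.21, adjusted p = 5.53e-13, Fisher's exact test), and with exon 3 left out the gene as a whole stayed at 1.85 ± 0.21. Both starts were thus called on their own.

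The distance of the insertions from the gene set Eif4enif1 apart from Eif4e2. Of the Eif4e2 insertions, 96.8% in the background and 93.1% in the PTGR sorted cells lay inside the gene, at a median of 2112 and 2367 bp from the assigned exon. Of the Eif4enif1 insertions, 17.7% in the background and 49.1% in the PTGR sorted cells lay inside the gene, and the median distance was 45461 bp in the background against 8899 bp after sorting. Most of the distant ones lay in Sfi1, a centrosomal gene that runs the other way just upstream (chr11:3131850-3193463, minus strand).

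The log2 odds ratio of Eif4enif1 was highest inside the gene and above 0 in every zone upstream of it. Inside the gene there were 25 and 28 sorted insertions against 33 in the background, a log2 odds ratio of 3.78 ± 0.32. Between Sfi1 and the gene there were 10 and 11 against 36 (2.32 ± 0.40). Inside Sfi1 there were 9 and 21 against 107 (1.26 ± 0.30), and beyond it 4 in all against 10 (1.77 ± 0.85). These zones were drawn after the positions were seen and carry no test. With all insertions inside Sfi1 left out of every library, Eif4enif1 had a log2 odds ratio of 3.08 (adjusted p = 2.85e-32, Fisher's exact test).

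**Figure D4:**
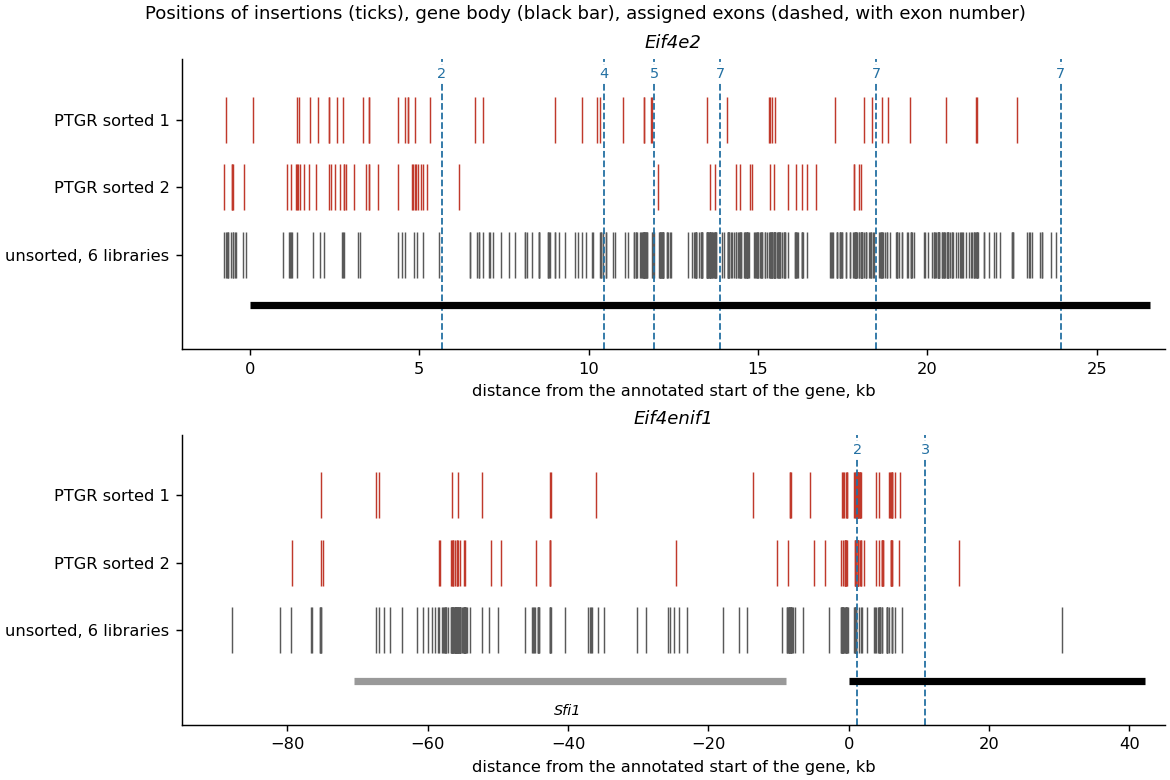
Positions of insertions assigned to Eif4e2 (top) and Eif4enif1 (bottom), in kb from the annotated start of the gene, for both PTGR sorted libraries and the 6 unsorted libraries together; each tick is 1 insertion, bars are genes and dashed lines are assigned exons with their numbers. Sorted insertions gather before exon 2 of Eif4e2, where the background is sparse, and around exons 2 and 3 of Eif4enif1.

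Genes that overlap or face each other share insertions, and the study's check with the strand of each insertion reversed bears on this. An insertion that points away from a gene is not able to splice the tag onto it. Reversed, Eif4e2 had 11 and 14 insertions in the PTGR sorted libraries against 242 in the background, a log2 odds ratio of -0.17 ± 0.30. Reversed, Eif4enif1 had 17 and 23 against 152, a log2 odds ratio of 1.18 ± 0.26 with an adjusted p of 0.00245 in the Fisher's exact test, which missed the threshold of 0.001. Eif4ebp1 had -0.74 ± 0.25 and Gigyf2 0.81 ± 0.50. No member was called in the reversed assignment of the PTGR screen, where 0.500% of genes were, and 1 was higher at an unadjusted p below 0.05 in the Fisher's exact test.

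Sfi1, which faces Eif4enif1, was itself higher in the PTGR sorted cells. In the sense assignment it had 40 insertions against 142 (1.27 ± 0.26, adjusted p = 0.000722, Fisher's exact test). In the reversed assignment Sfi1 had 104 against 176 (2.35 ± 0.18, adjusted p = 1.51e-29, Fisher's exact test), and all 104 were positions counted above for Eif4enif1, of whose 108 sorted insertions they were part. The minus-strand gene Drg1, which encodes a GTP-binding protein, spans Eif4enif1 on the other strand, and 76 of the sorted Eif4enif1 insertions lay inside it. By their strand, the insertions assigned in sense to Eif4enif1 could splice the tag onto Eif4enif1 but not onto Sfi1 or Drg1. Whether they also acted on Sfi1 or Drg1 in another way was not tested.

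Few positions were listed in both PTGR sorted replicates, but more were listed in both sorted and unsorted replicate 1. The 2 PTGR sorted replicates shared 1 position at Eif4e2 and 2 at Eif4enif1. At Eif4e2, 10 of the 47 positions of sorted replicate 1 were also listed in unsorted replicate 1 and 0 in unsorted replicate 2, while sorted replicate 2 shared 3 of its 54 with each. At Eif4enif1, the shared positions numbered 8 and 0 of 45 for sorted replicate 1 and 2 and 4 of 63 for sorted replicate 2. With every position shared with an unsorted PTGR library left out, the log2 odds ratios were 1.19 for Eif4e2 and 2.34 for Eif4enif1.

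Of 32 other genes of cap binding and cap-dependent translation, among them the eIF4G and eIF4A factors, the poly(A)-binding proteins and their partners, and the nuclear cap-binding complex, 31 were in the tables. In the PTGR screen 17 of them were tested and 1 was called, with 9 log2 odds ratios above 0, 8 below and a median of 0.06. The gene called was Tnrc6a, the GW182 scaffold of microRNA silencing, with 8 and 35 insertions in the sorted replicates and 41 in the background (3.17 ± 0.31, adjusted p = 4.55e-18, Fisher's exact test). Paip2, an inhibitor of poly(A)-binding protein, had the highest log2 odds ratio of the list, 4.10 ± 1.77, from 2 sorted insertions and 1 in the background, and was not tested. Edf1, which binds collided ribosomes, was not called in the sense assignment, with 0 and 5 insertions against 20 (1.10 ± 0.72), and was called in the reversed assignment of the PTGR screen, with 15 and 28 against 25 (3.89 ± 0.36, adjusted p = 5.24e-23, Fisher's exact test). None of the list was called among the 2 tested in the repressor and the 8 tested in the activator screen.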

How the data were processed

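The authors trimmed reads with Trim Galore 0.6.0, aligned them to mm10 with Bowtie2, filtered them with SAMtools 1.9 (versions from the submitters' processing notes) and gave each insertion the closest exon lying downstream in a GENCODE protein-coding transcript, leaving out first exons. The deposited lists give position, strand, gene, exon number and distance of each insertion (values of other kinds, in bp), with the strand as mapped and reversed. The deposited tables per screen give counts per gene pooled over libraries, their totals, and the authors' odds ratios and p-values, which were not used.

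Here each position was counted once per library if at most 200 kb from its exon, since PTGR sorted replicate 2 had 13.3% and both repressor unsorted libraries 50.0% repeated lines. These counts matched the deposited background counts for 20224 of 20409 genes, and counts of all lines matched the deposited sorted counts for 20407. In the PTGR screen, counting each position once matched the deposited sorted counts for only 16180 genes. The PTGR sorted counts and calls here therefore differ from the study's. Groups came from the labels. Sorted libraries of a screen were summed and compared with all 6 unsorted libraries by Fisher's exact test (one-sided), adjusted by Benjamini-Hochberg over genes with at least 3 sorted insertions, as in the study's methods. Exon use was tested with at least 10 insertions per group. Differences between screens were tested with edgeR 4.0.16 (R 4.3.3) on counts (TMM), called at an adjusted p below 0.05, and DESeq2 1.42.0 was an alternative. With 2 libraries a group, the p-values of edgeR and DESeq2 measure the spread between these libraries. Those of Fisher's exact test rest on summed counts and do not. Gene and exon positions came from GENCODE release M21 on GRCm38, read with Python 3.11.15, pandas 2.3.3, NumPy 2.4.6, SciPy 1.17.1 and pysam 0.24.0. The tests were also tried on simulated data. The text names all 9 members, and of the other listed genes those called, in either assignment, and the 2 with the highest PTGR log2 odds ratio. Members and lists were chosen with earlier results of these data known. Alternatives were another background, distance, minimum, counting rule, test and normalization, and leaving out libraries. Sequencing reads were not analysed here, and 1 acceptor sequence is not reported here.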

Additional observations from a re-analysis of the deposited data

Results flagged for a closer look

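The enrichment of Eif4e2 differed between screens in the test of the difference itself (edgeR interaction over 12 libraries). It was higher in the PTGR screen by 2.82 on the log2 scale than in the repressor screen (edgeR adjusted p = 0.00442) and by 2.36 than in the activator screen (edgeR adjusted p = 0.00530). The difference from the repressor screen rests on 3 sorted insertions there, all in replicate 1. Neither difference passed on the same genes without sorted replicate 2 (1.86 and 2.14), and that from the activator screen did not without replicate 1 either (2.60). The screens used different tags, reporters and numbers of sorts, and these cannot be told apart from the readout. None of the 9 members had an unsorted library far from the other 5 by the test for a single distant value.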

How the results depend on the processing

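Of 75 counts of members called under alternatives, 69 stayed within 1.5 times the reported count. Among these, 20 in the repressor screen, 20 in the activator screen and 2 of the reversed assignment were 0 against 0. Most members had too few sorted insertions to be tested in the repressor and activator screens, so those counts say little. In the PTGR screen, edgeR without a low-count filter called 1 member (Eif4enif1) in place of 2. The number of differences between screens was 2, and 0 to 1 with a sorted replicate left out on the same genes (an alternative chosen after seeing the data). Where the low-count filter was set again on the libraries left, which raises the genes tested from 2569 to 8171 and 8246, it was 1 to 2, with Eif4e2 against the repressor screen at 2.34 (edgeR adjusted p = 0.121) without replicate 2. In both, the single sorted libraries are assumed to vary like the unsorted ones. With library totals alone it was 3 (also chosen after seeing the data). TMM raised the median log2 fold change over totals by 0.11, 0.79 and 0.35 in the PTGR, repressor and activator screens. Exon use called 1 gene (Eif4e2) within 50 kb, and 1 to 2 with a sorted library left out. The log2 odds ratio of Eif4e2 in the PTGR screen ranged from 1.09 to 1.61 and that of Eif4enif1 from 1.45 to 3.08, lowest without sorted replicate 2 for Eif4e2 and without edgeR's filter for Eif4enif1. Gigyf2 ranged from 0.78 to 1.62 and was never called. Directions turned in 10 values, none of them called. Eif4ebp1 in the PTGR screen was -0.063 with every listed line counted and -0.0132 without PTGR unsorted replicate 1 (-0.0132 to 0.141 with any 1 library left out), and Eif4ebp2 was 0.45 without PTGR sorted replicate 1 (-0.396 to 0.45). Zfp598 was -0.0416 in edgeR without a filter. Eif4enif1 in the activator screen was 0.16 within 50 kb, 0.34 in edgeR, 0.39 with a replicate block and 0.18 in DESeq2. The difference between the repressor and activator screens at Eif4e2 was 0.23 without replicate 2, and 0.29 on the same genes. The cause was not tested. Over all genes, the PTGR screen had 62 calls, 76 with every listed line counted, and 40 against its own unsorted libraries alone.

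The labels give sorted and unsorted libraries the same replicate numbers but do not say that a number marks a shared batch. Deviations of same-numbered libraries correlated at 0.279 in the PTGR, -0.0139 in the repressor and 0.0763 in the activator screen over 2552 genes. With the replicate number as a block, edgeR gave 1.59 for Eif4e2 (adjusted p = 0.000650) and 1.59 for Eif4enif1 (adjusted p = 0.000481) in the PTGR screen. The number of genes called higher was 38 with the block and 38 without it, and whether these were the same genes was not examined. The differences between screens at Eif4e2 were 2.84 and 2.36 with the block, and no call of a member changed.

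Depth limits most members. A count of 0 in PTGR sorted replicate 1 allows up to 0.492 insertions per 10000, above the unsorted rates of Eif4e, Eif4e3 and Zfp598.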
